A study of Setaria viridis with 13 samples.

Results

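The lower and mid sections of leaf 3 are neighbouring stretches of a single grass leaf, one taken from under the ligule of leaf 2 and the other from over it. They were compared gene by gene in Setaria viridis (green millet), a C4 grass of small stature. These were 2 of the 13 samples of the series, picked out by their labels, with no measured value in the rule. Both came from wild-type plants of accession A10 grown in hydroponics under short days and taken at stage V3, 10 days after germination, and no treatment or mutation set them apart. Each sample was 1 column of values in which 3 biological replicates, grown at different times, had been merged. How many plants were in a replicate is not given in the sources used here. There was therefore no replicate error to set a difference against, no test was made, and every difference given here is a size. The values were deposited as log2(FPKM + 1), where FPKM is a fragment count corrected for transcript length and for the sample's total. Sequencing depth could not be read from them and is unknown.

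A grass leaf grows from a zone of dividing cells at its foot, so cells are older the farther up the leaf they lie. The ligule is the flap of tissue at the joint between the sheath, which wraps the stem, and the blade. Tissue inside the sheaths of older leaves is shaded, and tissue that has grown out past them meets the light. In C4 grasses the blade builds its photosynthetic machinery along this path, with carbon first captured in mesophyll cells and then released and fixed again in bundle sheath cells. The gene IDs of the table are not paired with names in the files used here, and 0 of them matched the reference gene table. No gene could be given a function, and the tissue labels could not be checked against marker genes.

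The 2 sections were close to each other in gene expression. Of the 35471 genes, 15557 reached an FPKM of 1 in the mid section, 15343 did in the lower one and 14679 in both. An FPKM of 5 in at least 1 of the sections was reached by 9706 genes (27.4%), and these are the genes compared below. Their median log2 difference, mid minus lower, was -0.01, with quartiles of -0.35 and 0.36. Within 0.5 on the log2 scale in either direction lay 6121 of them (63.1%), and within 1, or less than 2-fold on the log2(FPKM + 1) scale, lay 8743 (90.1%). Among the 78 pairs of samples in the series this pair had the second smallest share of genes differing by the size rule given next, after the bulk shoots of V3 and V5. By Spearman correlation it ranked 4 among the 78, after the pairs of bulk shoots. Across all genes, the sample most like each section was the other section, with a Spearman correlation of 0.953. Next came the leaf 3 base, at 0.951 with the mid section and 0.942 with the lower section. Both values are taken over genes of merged columns and say nothing of replicate error.

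A gene was called different when its log2(FPKM + 1) was apart by 2 or more between the sections and its FPKM in the higher one was 5 or more. By this rule 81 genes were higher in the mid section (0.835% of the 9706) and 13 were lower (0.134%), together 94 (0.968%). The higher genes thus made up 86.2% of the calls. This lean was a matter of the far tail. A log2 difference of 0.5 or more was held by 1798 genes in one direction and 1787 in the other. With a difference of 1 or more, 513 genes were higher (5.29%) and 450 lower (4.64%), together 9.92%. With 3 or more, 17 were higher (0.175%) and 3 lower (0.0309%), together 0.206%. Many calls lay near the edge of the rule, with 40 of the 81 higher genes and 8 of the 13 lower genes between 2 and 2.5, and a further 79 and 47 genes between 1.5 and 2. The median difference of the called genes was 2.50 on the log2 scale for those higher in the mid section and -2.20 for those lower. In these whole tissue pieces, fewer cells of a type and less RNA per cell cannot be told apart.

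**Figure D1:**
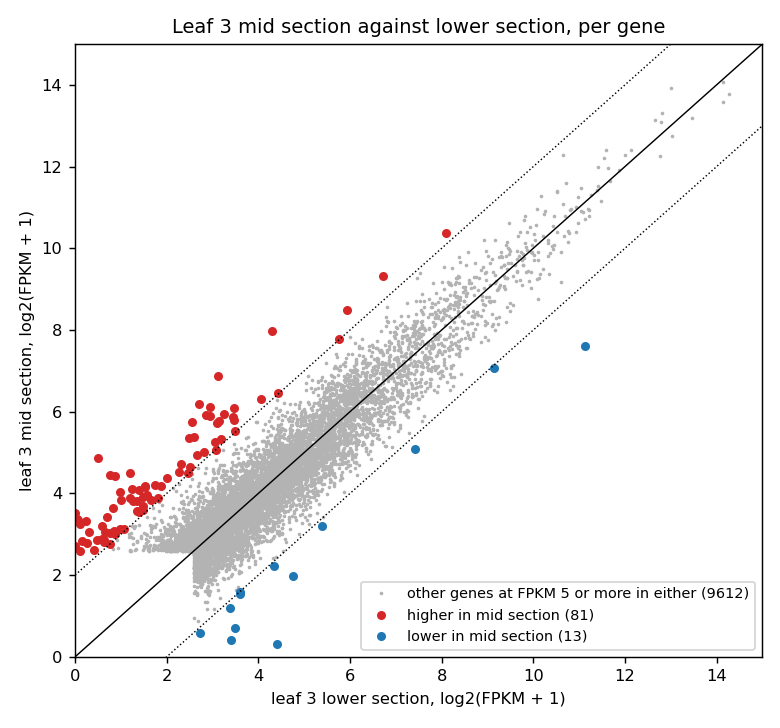
Each point is 1 of the 9706 genes at FPKM 5 or more in either section, with log2(FPKM + 1) of the lower section along the horizontal axis and of the mid section up the vertical axis. The solid line marks equal values and the dotted lines a log2 difference of 2. The 81 red points over the upper dotted line lie mostly at low to middle levels, and the 13 blue points lie under the lower one.

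The calls came from every level of expression. Of the 3097 genes whose higher section was at FPKM 5 to 10, 24 were higher in the mid section and 3 lower. The counts were 22 and 4 among 2548 genes at 10 to 20, 16 and 3 among 2144 at 20 to 50, 13 and 0 among 891 at 50 to 100, 5 and 2 among 931 at 100 to 1000, and 1 and 1 among 95 at 1000 or more. With a difference of 1 or more counted, the share of genes higher in the mid section was 4.04% at FPKM 5 to 10, 9.77% at 100 to 1000 and 6.32% at 1000 or more, and the share lower was 2.20%, 8.06% and 3.16%. The median size of the difference, without its sign, was 0.29, 0.56 and 0.44 in these classes. The pseudocount of 1 shrinks differences of low genes, and its part in these values was not tested.

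**Figure D2:**
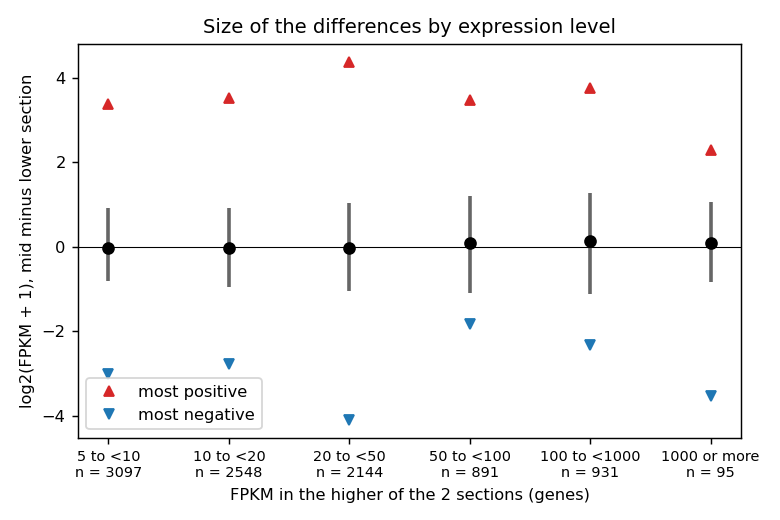
The horizontal axis groups the genes by FPKM in the higher of the 2 sections, and the vertical axis gives the difference in log2(FPKM + 1), mid minus lower. Circles are medians, bars run from the 5th to the 95th percentile over genes, and triangles are the most positive and most negative gene of each class. Medians lie between -0.03 and 0.14 in all 6 classes.

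The most abundant transcripts held a like share of the total in both sections. The top 10 genes by level took 16.5% of all FPKM in the mid section, against 17.6% for those of the lower section. At FPKM 1000 or more in either section there were 95 genes, which together held 39.5% and 39.2% of the sum. Of these 52 were above and 43 below their level in the lower section, with a median of 0.09 and quartiles of -0.35 and 0.55, and 6 were higher and 3 lower by at least 1. Si031814m.g ranked first in the mid section, at FPKM 17198, and was second below the ligule of leaf 2, at 18053. It stood at 8363 in the base and 6164 in the tip, and between 3349 (R bulk shoot) and 13776 (coleoptile) in the samples outside leaf 3, with 9877 in the V5 root. Si003882m.g ranked second in the mid section, at 15607, against 8248 in the lower section, a log2 difference of 0.92. It was higher still in the base (29327) and the tip (18178) and was at 39.2 in the vegetative meristem. Si020856m.g ranked first in the lower section, at 19618, with 14066 in the mid section, 48644 in the base and 32093 in the tip. The first of these 3 genes was thus abundant in all samples, the root and meristems included. The other 2 were far lower in the root, at 494 and 98.0.

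The largest difference of all belonged to a gene whose level in the mid section was above that of all other samples. Si039957m.g was at FPKM 28.0 in the mid section against 0.404 in the lower one, a log2 difference of 4.37. It was at 0.283 in the leaf base and 0.444 in the tip, so that the mid section stood apart from all 3 other parts of the leaf. Outside leaf 3 it was at 0.729 in the coleoptile, at 0.189, 1.38 and 2.39 in the V3, V5 and R bulk shoots, and at 2.48 and 0.828 in the vegetative and inflorescence meristems. The root was at 1.497 and the pre-anthesis panicle at 0.905, and the next highest sample of the 13 was the post-anthesis panicle at 7.00. The V3 bulk shoot, of the same stage and age as the mid section, thus held little of this transcript.

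Si002317m.g was at FPKM 116 in the mid section against 7.69 in the lower one, a log2 difference of 3.75. The base had 4.50 and the tip 0.329. Bulk shoots had 3.69 (V3), 4.50 (V5) and 8.25 (R), the panicles 26.9 before and 10.4 after anthesis, and the meristems 0.257 (vegetative) and 0.117 (inflorescence). It was at 0.0425 in the coleoptile and was listed at 0 in the root. Within the leaf this gene again had its highest level in the mid section. Elsewhere it was highest in the pre-anthesis panicle, with the post-anthesis panicle little above the R bulk shoot.

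In the other direction, Si029701m.g was at FPKM 20.1 in the lower section against 0.240 in the mid one, a log2 difference of -4.09. The base was at 1.06 and the tip was listed at 0. The coleoptile had 4.58, and the bulk shoots had 4.10 (V3), 5.96 (V5) and 1.57 (R). In the vegetative and inflorescence meristems it was at 0.0140 and 0.0210 and in the post-anthesis panicle at 0.0644, and it was listed at 0 in the pre-anthesis panicle and the root. Its highest value of the series was the lower section of leaf 3, followed by shoots and the coleoptile, and it was under 0.1 in both meristems, both panicles and the root.

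Si015158m.g was much more abundant, at FPKM 2240 in the lower section against 194 in the mid section, a log2 difference of -3.52. The base and tip were at 321 and 325, close to each other and above the mid section. Bulk shoots had 248 (V3), 161 (V5) and 58.3 (R), the coleoptile 90.8 and the panicles 54.3 before and 85.8 after anthesis. The meristems were at 28.4 (vegetative) and 44.6 (inflorescence) and the root at 1.38. The lower section was thus the one sample of the 13 above 1000, and this gene ranked 26 there by FPKM and 469 in the mid section.

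**Figure D3:**
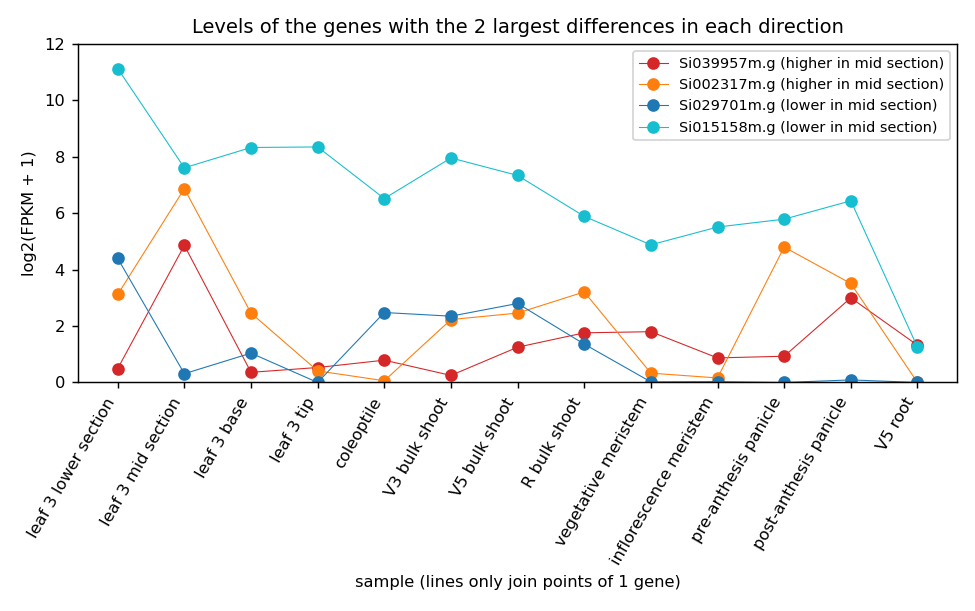
Levels of the genes with the 2 largest log2 differences in each direction, as log2(FPKM + 1) on the vertical axis, in the 13 samples on the horizontal axis. Points are single merged values and lines only join the points of 1 gene. The 2 genes higher in the mid section have their highest value of all samples there, and the 2 lower genes have theirs in the lower section.

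A level under FPKM 1 in one section with 5 or more in the other was rare. At FPKM 5 or more in the mid section and under 1 in the lower section were 32 genes (0.330% of the 9706). Their median FPKM was 7.31 in the mid section, and 3 of them were listed at 0 in the lower section. The reverse held for 6 genes (0.0618%), with a median of 7.61 in the lower section and 0 listed at 0 in the mid section. At the weaker cut of FPKM 1 or more in one section and a listed 0 in the other, there were 20 genes for the mid section and 1 for the lower section. This cut was taken over all 35471 genes. Most of these levels were low and depth is unknown, so a low value or a listed 0 does not show absence.

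Most of the 81 genes higher in the mid section were also above their level in the base and the tip of the same leaf. For 67 of them (82.7%) both the base and the tip were below the mid section, and for 34 (42.0%) both were at or below the lower section. Among the 10282 genes at FPKM 5 or more in any leaf part, the mid section was highest in 3135 (30.5%). Over the 9154 genes at FPKM 5 in the base or mid section, base minus mid had a median of -0.41 (quartiles -0.77 and -0.08). Over 9703 such genes, tip minus mid had -0.21 (-0.88 and 0.25). Base and tip were thus each below the mid section for most genes. No such share was counted for the 34. The median log2(FPKM + 1) of the 81 was 4.10 in the mid section, with 1.48 for the lower section, 1.27 for the base and 0.91 for the tip, while over all 9706 genes it was 3.86, 3.86, 3.40 and 3.50. A gene chosen for a high value in the mid section is likely to be lower in any other sample, so part of this pattern follows from the choice. In 47 of the 81 genes the mid section was at least 2 above each of the 3 other leaf parts. Among the 10282 genes at FPKM 5 or more in any leaf part, the tip stood above the other 3 by as much in 108 genes, the lower section in 8 and the base in 0.

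Outside leaf 3 the 81 genes had lower medians than all genes compared in each of the 9 samples, though higher ones than in the leaf base and tip. Their median reached 3.93 in bulk shoots of stage R, 3.44 and 3.33 in the pre- and post-anthesis panicles, 3.43 in the V5 bulk shoot and 3.17 in the vegetative meristem. It was 2.98 in the V3 bulk shoot, 2.29 in the coleoptile, 2.04 in the inflorescence meristem and 1.63 in the root. All genes compared had medians from 3.30 (root) to 4.25 (R bulk shoot) in these samples. An FPKM of 5 was reached by 74.1% of the 81 in the R bulk shoot, 58.0% in the vegetative meristem, 30.9% in the leaf tip and 23.5% in the leaf base, against 90.04%, 79.8%, 75.3% and 74.8% of all genes compared. In 16 of the 81 genes all 3 other leaf parts were under FPKM 1. Of those 16, 14 reached an FPKM of 5 in at least 1 sample outside leaf 3, a share not counted for all genes compared. The R bulk shoot and the vegetative meristem had 9 genes each (56.25%), against 90.04% and 79.8% of all genes compared. The post-anthesis panicle had 8 (50%) and the root 7 (43.75%), against 77.8% and 62.5%. In each of these samples the share was thus under that of all genes compared.

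**Figure D4:**
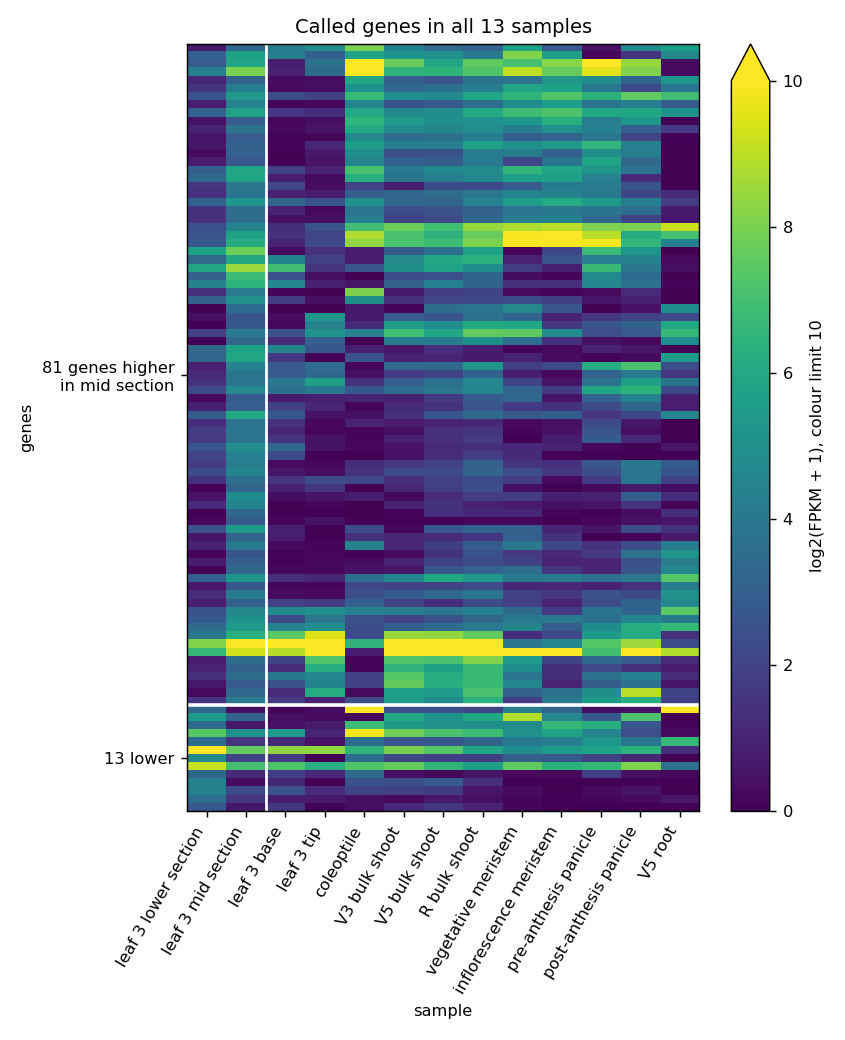
Rows are the 94 called genes, the 81 higher in the mid section over the 13 lower ones, ordered by clustering within each group, and columns are the 13 samples. Colour gives log2(FPKM + 1), with values over 10 shown at the limit. The first 2 columns made the choice of genes. To their right the base and tip are dark for most of the 81 genes, and many of these are brighter in shoots, meristems and panicles.

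The 81 genes were divided by what the base and tip did. The 34 genes with base and tip at or below the lower section had medians of 0.71 in the base and 0.37 in the tip. Outside leaf 3 their medians were highest in the coleoptile (4.36), the pre-anthesis panicle (3.86) and the R bulk shoot (3.69). All genes compared had 3.56, 3.75 and 4.25 there. The inflorescence and vegetative meristems followed (3.53 and 3.43), against 3.825 and 3.84 for all genes compared. The 34 were thus above all genes in the coleoptile and, by little, in the pre-anthesis panicle. They were below them in the R bulk shoot and both meristems. In the root 15 of the 34 were under FPKM 1, as were 33 of the 81 (40.7%) and 14.1% of all genes compared. By contrast, 14 of the 81 genes were at least as high in the tip as in the mid section. Their medians were 1.19 in the lower and 3.59 in the mid section, 3.23 in the base and 5.46 in the tip. All 14 reached an FPKM of 5 in each of the 3 bulk shoots, with medians of 6.73 (V3), 5.83 (V5) and 6.77 (R), against 4.27 in the vegetative meristem, 4.04 and 3.53 in the post- and pre-anthesis panicles, 1.72 in the coleoptile, 1.87 in the inflorescence meristem and 2.22 in the root. In the vegetative meristem and in the post-anthesis panicle 12 of the 14 (85.7%) reached an FPKM of 5, near the 79.8% and 77.8% of all genes compared. In the bulk shoots 78.4% (V3), 85.4% (V5) and 90.04% (R) of all genes compared did so. The remaining 33 of the 81 genes had medians of 1.27 in the lower and 3.97 in the mid section, 1.78 in the base and 1.11 in the tip. Outside leaf 3 theirs ran from 1.01 in the coleoptile to 3.77 in the post-anthesis panicle. All 3 groups were drawn from the called genes by their leaf values, so the leaf medians describe the choice and the other 9 samples do not enter it.

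The 13 genes lower in the mid section were also below their lower-section level in the base and the tip. The tip was at or below the mid section for 11 of them and the base for 6, while the base lay between the 2 sections for the other 7. As given above, the base and the tip were each below the mid section for most genes in general. Their medians were 4.34 in the lower and 1.58 in the mid section, 1.57 in the base and 0.74 in the tip. In the vegetative meristem the median was 4.10, in the coleoptile 3.60 and in the inflorescence meristem 3.26, with wide quartiles (0.24 and 4.88 in the vegetative meristem). In the root it was 0.20, and 69.2% of the 13 were under FPKM 1 there. The lower section held the highest value of all 13 samples for 7 of the 13 genes, and the mid section did for 23 of the 81. Over all 9706 genes the lower section was highest for 15.4% and the mid section for 7.00%. The 13 and the 81 were chosen for high values in these same sections, so the larger shares among them follow at least in part from the choice.

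The larger groups with a difference of at least 1 differed from each other in their levels in the base and tip. Where the base lies relative to the 2 sections was not used here, so no order along the leaf is read from these values. Among the 450 genes lower in the mid section, the tip was at or below the mid section for 365 (81.1%) and the base for 267 (59.3%). Over the 9154 genes at FPKM 5 in the base or mid section, the upper quartile of base minus mid was -0.08. The base was thus the lower one for most genes, and 59.3% is not above that general share. Tip minus mid had a median of -0.21 over 9703 genes. Only 4 and 14 of the 450 were back at the lower-section level in the base and in the tip. Their medians were 4.81 in the lower and 3.49 in the mid section, 3.36 in the base and 2.57 in the tip. Among the 513 genes higher in the mid section, 104 (20.3%) were at least as high in the tip, and 167 (32.6%) were at or below the lower-section level in both the base and the tip. Their medians were 3.16, 4.56, 3.40 and 3.14 in the same order of samples. As for the smaller groups, part of the distance between the 2 sections and the others follows from choosing genes on the sections. The base and tip also had lower medians over all genes compared.

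Between pairs of samples that played no part in choosing them, the 450 and the 513 genes also differed. For the V5 root minus the V5 bulk shoot, the 450 genes had a median log2 difference of -1.98, the 513 genes -0.64 and all 9706 genes -0.44. In the root 43.1% of the 450 were under FPKM 1, against 26.5% of the 513 and 14.1% of all. For the vegetative meristem minus the V3 bulk shoot the medians were -0.53 for the 450, 0.33 for the 513 and 0.46 for all. For the inflorescence meristem minus the V5 bulk shoot they were -0.54, -0.13 and 0.07. The coleoptile went the other way, and relative to the V3 bulk shoot it was at 0.46 for the 450 genes, 0.09 for the 513 and 0.11 for all, with 74.0% of the 450 higher in the coleoptile. Between the panicles, after minus before anthesis, the medians were -0.19, 0.19 and 0.00. Between bulk shoots the medians were 0.17, 0.24 and 0.29 for V5 minus V3, and 0.14, 0.59 and 0.38 for R minus V5. The median of the 450 genes thus lay below that of all genes in these contrasts except that of the coleoptile, where it lay above. Some of these pairs share the V3 or V5 shoot column. By the rule all 450 genes were at FPKM 5 or more in the lower section, and 330 of them were in the mid section. All 513 were in the mid section and 321 of them in the lower one. The part of this filter in the medians was not tested.

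**Figure D5:**
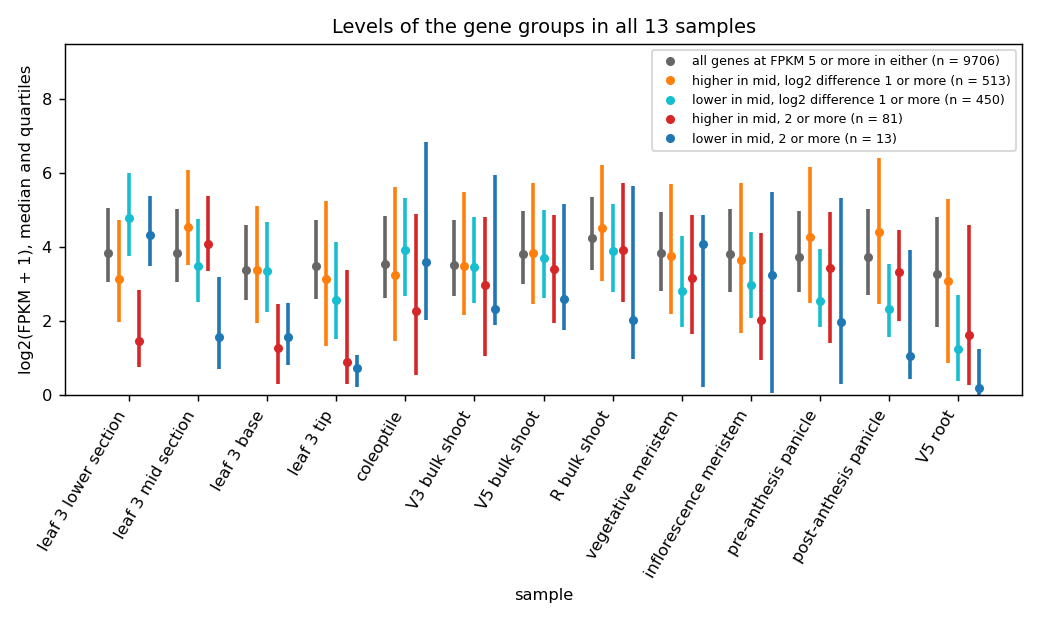
For each of the 13 samples on the horizontal axis, points give the median and bars the quartiles over genes of log2(FPKM + 1) for all genes compared and for the genes higher or lower in the mid section by at least 1 or at least 2. The 81 genes have medians of 1.48, 1.27 and 0.91 in the lower section, base and tip, and of 2.98 to 3.93 in the bulk shoots.

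Beside the other pairs of leaf 3 parts, the lower and mid sections had the smallest share of called genes. By the same size rule the base and the lower section differed in 271 of 9308 genes (2.91%) and the base and the mid section in 278 of 9154 (3.04%). The tip and the base differed in 395 of 8592 (4.6%), the tip and the mid section in 1118 of 9703 (11.5%) and the tip and the lower section in 1308 of 9839 (13.3%). Each sample takes part in 3 of the 6 pairs, so their counts are not independent.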

How the data were processed

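Polyadenylated RNA was read as paired-end reads of 100 nt, per the labels' protocols. The deposited table gives log2(FPKM + 1) for each transcript and sample, to 2 decimals. Base and pseudocount were inferred from the values, and the highest is 16.6. STAR and DESeq2 are named, without role or version, per the submitters' processing notes. For the genome build, the annotation and the merging of replicates, the sources used here give no details. Because FPKM depends on gene length and on the sample's total, a few abundant genes can lower all others. A second deposited table holds a start site offset in nt per gene, and how the authors made it is not stated.

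Python 3.11.15, pandas 2.3.3, numpy 2.4.6, scipy 1.17.1 and matplotlib 3.10.9 were used. Of 40599 transcripts, that with the highest mean FPKM stood for each of 35471 genes. The calling rule was run on simulated data with an assumed noise, as a check of the code. This does not give its error on these data. Alternatives were 2 rescalings and other thresholds, minimums, pseudocounts and transcript choices. Genes named are the 2 largest differences in each direction past the rule, the 2 most abundant per section and the gene with several transcripts whose differences lie farthest apart. The 2 samples are defined by their labels alone, but this comparison, the calling rule and the groups were chosen with earlier results of these data known.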

Additional observations from a re-analysis of the deposited data

How the results depend on the processing

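The calls were little moved by scaling. Median-ratio rescaling shifted the mid section by only 0.02 against the lower section and gave 80 higher and 14 lower genes, and scaling to equal sums gave 76 and 16. The counts stayed within 1.5 times of 81 and 13 without an FPKM minimum, with a minimum of 10, with transcripts summed and with single-transcript genes only, and the share of higher genes ran from 82.6% to 87.0% over these and the scalings. A log2 threshold of 1 gave 513 higher and 450 lower genes, of which 53.3% were higher, and a threshold of 3 gave 17 and 3. A pseudocount of 0.1 gave 25 lower genes (104 higher), and one of 5 gave 22 higher and 4 lower. By construction, stricter rules call fewer genes. With a pseudocount of 5 the difference of Si039957m.g went from 4.37 to 2.61 and that of Si029701m.g from -4.09 to -2.26. The median difference stayed between -0.07 and 0 in all 10 alternatives. No named difference past the rule changed sign. Thresholds, minimums and pseudocounts cannot change a sign, and these genes were picked as the largest differences, so this is no support for them. No paired analysis was possible because each sample is 1 merged column, and no replicate could be left out. Depth is unknown, so the counting error of genes near FPKM 5, many of the calls, cannot be given.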

Other observations

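Genes higher in the mid section by at least 1 were more often listed with a deposited transcription start site offset than those lower. An offset is 1 signed number of nt per gene. Of the 513 genes higher by at least 1, 338 (65.9%) had an offset, against 163 of the 450 lower genes (36.2%) and 3876 of all 9706 genes compared (39.9%). Abundant genes were listed more often in general, from 19.7% at FPKM 5 to 10 to 79.3% at 100 or more. Within classes of level, the share for higher, lower and all genes was 42.4%, 20.6% and 19.7% at FPKM 5 to 10, and 58.4%, 18.1% and 32.9% at 10 to 20. It was 70.0%, 35.2% and 48.3% at 20 to 50, and 87.1%, 36.7% and 65.0% at 50 to 100. At 100 or more the shares were close, at 83.5%, 78.2% and 79.3%. Of the 81 genes, 51 (63.0%) had an offset, as did 8 of the 13 (61.5%). The gap between the directions was thus not seen among the called genes, though the 13 are few. The offsets themselves had medians of -7 nt for the 513, -8 nt for the 450 and -5 nt for all genes compared. How genes came to be listed is not given in the sources used here, and the part of this listing in the difference was not tested.

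In the deposited values, transcripts of the same gene had close log2 differences between the sections. In 2305 genes at least 2 transcripts reached an FPKM of 5 in either section. The median distance between their log2 differences was 0.01, 90% of the genes lay at or under 0.11, and 0 reached 1. In 657 of these genes the differences were identical to 2 decimals. How reads were assigned to the transcripts of a gene is not given in the sources used here. Whether the values of such transcripts are independent of each other was not tested, so no joint regulation is read from these distances. The widest distance, 0.97, was in Si003080m.g, where one transcript was at FPKM 10.7 in the mid and 7.17 in the lower section and another at 38.9 and 53.6.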
